A study of Mus musculus with 6 samples.

Results

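The genes described here are 10 enzymes that make, modify or break down ceramide and other sphingolipids: Sptlc1, Sptlc2, Sptlc3, Cers2, Cers6, Degs2, Sphk1, Sgpp1, Sgpp2 and Ugcg. They were chosen by gene symbol, with earlier results of these data known. All 10 symbols were found among the 17684 genes of the table, and all 10 had enough counts to be tested. Kidney RNA was sequenced from db/db mice, which lack a working leptin receptor and become obese and diabetic, with the question of what long-term atorvastatin, a statin that inhibits cholesterol synthesis, does to the diabetic kidney. The Db group (3 libraries) received saline and the Db + Ato10 group (3 libraries) received atorvastatin by gavage at 10 mg/kg on each day of dosing over 40 weeks. All 6 mice were 50 weeks old and of the strain given as C57 BLKS/L. In the sample records a field shared by all 6 libraries describes atorvastatin treatment, and the groups follow the field that separates saline from atorvastatin. Mice died during the treatment period of this study, so the libraries come from survivors, and no lean or nondiabetic kidney was part of this comparison.

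Db replicates 1 to 3 held 13134930, 11381678 and 12426051 counts, and Db + Ato10 replicates 1 to 3 held 14578023, 14667909 and 13133241. At this depth 3 counts of a gene correspond to 0.198 to 0.260 CPM (counts scaled to the library size, here after TMM normalization), and levels below that were not detectable. Among the 15 pairs of libraries, 0 held identical counts. On the first principal component of all tested genes, with 71.1% of the variance, Db + Ato10 replicate 1 was at 107 and replicate 2 at 46.1, whereas Db + Ato10 replicate 3 was at -18.8, close to Db replicate 2 at -26.9. Db replicates 1 and 3 were at -55.4 and -52.0. The treated libraries were thus spread far more widely than the saline libraries, and replicate 3 lay beside the saline group. Db replicate 1 also stood apart from its description: its 4 Y-linked genes in the table summed to 2 counts, against 1419 to 2116 in the other 5 libraries, although only male mice were enrolled by the study's methods. Results are therefore given with all 6 libraries and, where they rest on these libraries, also without them.

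The kidney label was checked against markers of nephron segments. Those of the proximal tubule summed to 8936, 6291 and 8205 CPM in Db replicates 1 to 3 and to 949, 3765 and 8046 CPM in Db + Ato10 replicates 1 to 3, with Slc34a1 as the most abundant of 6 (here and for the other marker lists by mean TPM over the 6 libraries). Those of the thick ascending limb summed to 6341, 7057 and 6806 CPM with saline and to 4324, 2097 and 5146 CPM with atorvastatin, with Umod as the most abundant of 5. Every library thus held kidney tubule RNA, and the sum of the proximal tubule markers was lowest in Db + Ato10 replicate 1. Of the single markers, Slc5a2 was lowest in Db + Ato10 replicate 2.

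Sphingolipids are built on a backbone that serine palmitoyltransferase forms from serine and palmitoyl-CoA, which ceramide synthases then join to a fatty acid to give, after desaturation, ceramide. Ceramide is converted to sphingomyelin or glucosylceramide, or is broken down to sphingosine, which sphingosine kinases phosphorylate to the signalling lipid sphingosine 1-phosphate and phosphatases return. In the kidney, glycosphingolipids and sulfatides are membrane lipids of tubule cells, and ceramide and sphingosine 1-phosphate have been studied in diabetic injury.

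With edgeR's quasi-likelihood test over 13679 genes, 0 of the 10 enzymes met the criteria for a call, more than 1.5-fold in either direction with an adjusted p-value (Benjamini-Hochberg) under 0.05, and neither did any other gene (0%). At an unadjusted p-value under 0.05 there were 4 of the 10, beside 16.9% of all tested genes. Sptlc2 and Sphk1 were higher in the Db + Ato10 group (2 of 10, beside 11.2% of genes), and Sptlc3 and Sgpp2 were lower (2 of 10, beside 5.71% of genes). Sptlc3 had enough counts to be tested only through the Db group, so it could hardly come out as higher, here or in the overlap count below. With at least 10 counts required in every library it was not tested, and 3 enzymes were at that p-value, beside 16.1% of genes. DESeq2, with the same genes kept as in the main edgeR fit, called 2 of the 10, Sptlc2 as higher and Sgpp2 as lower, beside 6.48% of genes. Both were just under the threshold, with DESeq2's adjusted p = 0.0469 for Sptlc2 and 0.0499 for Sgpp2, and Sphk1 was just above it at 0.0565. For 6 of the 10 the CPM values of the groups did not overlap, beside 23.2% of all tested genes. Of these, 2 were higher (12.0% of genes) and 4 were lower (11.3% of genes), with Sptlc1 among the 4 except under upper-quartile normalization. The log2 fold change was positive for 5 and negative for 5, and its median was -0.052 for the 10 enzymes and -0.006 for all genes. Its median size without regard to sign was 0.617 for the enzymes and 0.287 for all genes. Because the enzymes were chosen with earlier results of these data known, these shares and sizes describe the set and do not test it. A single gene cannot go below a two-sided p-value of 0.1 in an exact permutation test of 3 libraries against 3.

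The calls depended on single libraries. Without Db + Ato10 replicate 3, edgeR called 1 of the 10 enzymes, Ugcg, beside 8.18% of genes, and DESeq2 called 4, Sptlc2, Sphk1, Sgpp2 and Ugcg, beside 19.3% of genes. Without Db replicate 1, the library with 2 Y-linked counts, edgeR called 0 of the 10, and Sptlc2 and Sgpp2 (2 of 10, beside 7.68% of genes) were at an unadjusted p-value under 0.05, while DESeq2 called 0 of the 10, beside 1.46% of genes. With Db + Ato10 replicate 1 left out, edgeR called 0 of the 10, with 3, Sptlc2, Sphk1 and Sgpp2, at an unadjusted p-value under 0.05 beside 12.4% of genes, and DESeq2 called 2, again Sptlc2 and Sgpp2, beside 2.43% of genes. DESeq2 also called 0 of the 10 when Db replicate 2 (4.79% of genes called), Db replicate 3 (1.68%) or Db + Ato10 replicate 2 (2.88%) was removed, so 4 of its 6 fits on 5 libraries lost both Sptlc2 and Sgpp2.

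**Figure D1:**
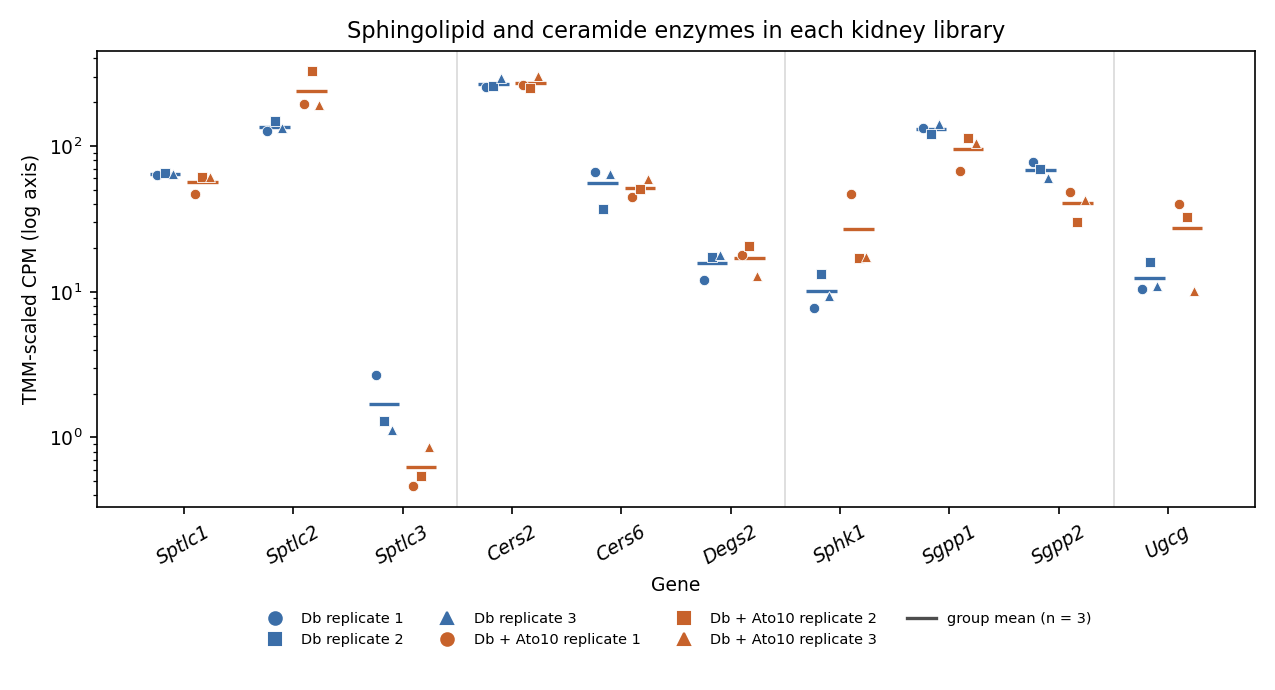
TMM-scaled CPM (log axis) of the 10 enzymes in each of the 3 Db and 3 Db + Ato10 libraries, with marker shapes for replicates and bars for group means. Every Db + Ato10 library lies above every Db library for Sptlc2 and Sphk1 and below every Db library for Sptlc3, Sgpp1, Sgpp2 and, except under upper-quartile normalization, Sptlc1.

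Serine palmitoyltransferase, the enzyme that opens the pathway, consists of Sptlc1 with a catalytic partner, either Sptlc2 or Sptlc3. Sptlc1 (NCBI Gene 268656), the shared subunit, was at 63.6, 65.0 and 63.8 CPM in Db replicates 1 to 3 and at 47.2, 61.4 and 61.8 CPM in Db + Ato10 replicates 1 to 3. The groups did not overlap, but Db + Ato10 replicates 2 and 3 were just below the saline libraries and only replicate 1 was well below. The log2 fold change (Db + Ato10 against Db) was -0.18 (SE, the standard error, 0.15, edgeR's adjusted p = 0.523), and -0.05 without Db + Ato10 replicate 1.

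Sptlc2 (NCBI Gene 20773), the catalytic subunit that prefers palmitoyl-CoA, was at 126, 148.5 and 134 CPM in Db replicates 1 to 3 and at 195, 325 and 193 CPM in Db + Ato10 replicates 1 to 3. All 3 treated libraries exceeded all 3 saline libraries, replicate 3 included, and replicate 2 was the highest. Mean levels (± SD, n = 3) were 136 ± 11.4 CPM with saline and 238 ± 75.6 CPM with atorvastatin. The log2 fold change was 0.80 (SE 0.24, edgeR's adjusted p = 0.239), a value that Sphk1 and Sgpp2 shared and the smallest among all tested genes. It was 0.94 without Db + Ato10 replicate 1, 0.53 without replicate 2, 0.94 without replicate 3 and 0.76 without Db replicate 1. The RefSeq annotation places a noncoding gene, Gm33444, over part of Sptlc2. Whether counting used strand is not given in the sources used here, so reads from the shared part cannot be told apart.

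Sptlc3 (NCBI Gene 228677), the alternative catalytic subunit, which accepts other acyl-CoAs and makes backbones of other lengths, was at 2.70, 1.30 and 1.13 CPM in Db replicates 1 to 3 and at 0.461, 0.540 and 0.867 CPM in Db + Ato10 replicates 1 to 3. These levels rest on 34, 15 and 14 counts and on 7, 8 and 11 counts, so the gene was tested only through the Db group. The groups did not overlap, Db replicate 1 was the highest library, and the other saline libraries were closer to the treated ones. Its log2 fold change was -1.46 (SE 0.49, edgeR's adjusted p = 0.244). With limma it was -0.65 on log2(TPM + 1), -0.46 on log2(FPKM + 1) and -1.30 on log2(TPM + 0.1). With edgeR it was -0.95 without Db replicate 1, and -1.28 and -1.36 without Db + Ato10 replicates 1 and 2, in each case no longer at an unadjusted p-value under 0.05, and it was -1.75 without Db + Ato10 replicate 3.

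Levels of the subunits can be set against each other only per transcript length, as in the TPM values the authors deposited. The ratio of Sptlc2 to Sptlc1 in TPM was 0.728, 0.842 and 0.772 in Db replicates 1 to 3 and 1.53, 1.95 and 1.15 in Db + Ato10 replicates 1 to 3. Sptlc1 was thus the more abundant of the pair in every saline library and Sptlc2 in every treated library. Sptlc3 was a small part of the catalytic subunits: its share of the summed TPM of Sptlc2 and Sptlc3 was 6.26%, 2.69% and 2.60% in the Db libraries and 0.734%, 0.519% and 1.41% in the Db + Ato10 libraries. The share was lower in every treated library. The TPM of the 3 subunits together was 78.3, 84.1 and 79.1 in the Db libraries and 74.2, 125 and 87.1 in the Db + Ato10 libraries, where the groups overlapped and replicate 1 was the lowest of the 6. These ratios were not tested beyond whether the groups overlap. Where the groups did not overlap, this follows from the levels of the single subunits and is no further result.

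Because Sptlc2 and Sptlc3 encode alternative subunits of the same enzyme and differed in opposite directions, the 250 bases upstream of each gene's start are shown, from RefSeq on build GRCm38.p6, 5′ to 3′ on the gene's own strand. All 10 enzymes matched an entry of that table by symbol and gene number. The window of Sptlc2 lies at chr12:87388356-87388605 on the minus strand and that of Sptlc3 at chr2:139493663-139493912 on the plus strand. Capitals mark matches on either strand to any of 5 motifs searched: the CCAAT box (CCAAT, in 33.8% of the 32851 windows of that length), the GC box (GGGCGG, 32.7%), the TATA box (TATAAA, 12.4%), the E-box (CACGTG, 6.02%) and a core of the sterol regulatory element (TCACNCCAC, 1.05%).
Sptlc2: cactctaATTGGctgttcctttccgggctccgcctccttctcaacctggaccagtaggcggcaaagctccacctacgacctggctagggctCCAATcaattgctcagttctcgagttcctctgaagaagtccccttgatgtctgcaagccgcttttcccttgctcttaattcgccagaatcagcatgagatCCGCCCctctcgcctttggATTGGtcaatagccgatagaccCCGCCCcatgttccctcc
Sptlc3: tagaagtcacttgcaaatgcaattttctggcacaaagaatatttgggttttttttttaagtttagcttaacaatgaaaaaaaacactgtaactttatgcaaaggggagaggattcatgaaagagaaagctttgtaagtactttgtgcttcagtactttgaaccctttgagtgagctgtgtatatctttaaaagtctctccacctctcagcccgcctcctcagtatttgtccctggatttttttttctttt
The Sptlc2 window held 3 matches to CCAAT and 2 to GGGCGG, which shared no bases, with 55.2% G or C and 11 CpG. The Sptlc3 window held 0 matches to the 5 motifs, with 35.6% G or C and 1 CpG, while the median window had 52.4% and 6. A match describes letters and not a bound site, and its absence says only that these letters are not in this window.

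Ceramide synthases attach fatty acids of different lengths to the backbone, and the log2 fold changes of these enzymes were near 0. Cers2 (NCBI Gene 76893), which uses very long acyl chains, was at 254, 259 and 292 CPM in Db replicates 1 to 3 and at 261, 249.7 and 301 CPM in Db + Ato10 replicates 1 to 3. The groups overlapped throughout. Its log2 fold change was 0.01 (SE 0.16, edgeR's adjusted p = 0.968), and its sign turned when no filter on low counts was set, on TPM in place of counts, and with Db replicate 1, Db replicate 2 or Db + Ato10 replicate 3 left out (-0.013, -0.008 and -0.064). RefSeq places Anxa9, Setdb1 and LOC115489748 over parts of Cers2, so some of its reads may be theirs.

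Cers6 (NCBI Gene 241447), which makes ceramides with long acyl chains such as palmitate, was at 66.8, 36.8 and 64.4 CPM in the Db libraries and at 44.8, 50.7 and 59.2 CPM in the Db + Ato10 libraries. Db replicate 2 was the lowest of all 6, and the treated libraries lay within the saline range. The log2 fold change was -0.12 (SE 0.25, edgeR's adjusted p = 0.810), with 0.04 without Db replicate 1. Without Db replicate 2 it was -0.35 and the groups did not overlap, beside 39.0% of all genes in that comparison. RefSeq places Gm52515 over part of Cers6. In TPM, Cers2 was 13.5, 25.8 and 16.4 times Cers6 in Db replicates 1 to 3 and 21.5, 18.1 and 18.6 times in Db + Ato10 replicates 1 to 3, and this ratio overlapped between the groups.

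Degs2 (NCBI Gene 70059), a dihydroceramide desaturase that also hydroxylates the backbone to give phytoceramide, was at 12.1, 17.3 and 17.9 CPM in the Db libraries and at 17.9, 20.5 and 12.8 CPM in the Db + Ato10 libraries. The lowest values were in Db replicate 1 and Db + Ato10 replicate 3, and the groups overlapped. Its log2 fold change of 0.12 (SE 0.25, edgeR's adjusted p = 0.807) turned to -0.03 when Db replicate 1 was left out and to -0.02 for Db + Ato10 replicate 2, and was 0.29 for Db + Ato10 replicate 3. Degs2 overlaps Evl and Gm33467 in the RefSeq annotation.

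Sphingosine 1-phosphate is made by sphingosine kinases and returned to sphingosine by the phosphatases of the endoplasmic reticulum, and the CPM values of the kinase Sphk1 were higher and those of both phosphatases lower in all 3 treated libraries. Sphk1 (NCBI Gene 20698), the kinase that is induced by growth factors and cytokines, was at 7.71, 13.3 and 9.37 CPM in Db replicates 1 to 3 and at 46.8, 17.0 and 17.3 CPM in Db + Ato10 replicates 1 to 3. Every treated library exceeded every saline library, and replicate 1 was far above the other treated libraries. Mean levels (± SD, n = 3) were 10.1 ± 2.85 CPM with saline and 27.0 ± 17.1 CPM with atorvastatin. Its log2 fold change was 1.42 (SE 0.46, edgeR's adjusted p = 0.239). It was 0.77 without Db + Ato10 replicate 1 and 1.66 without replicate 3. Without Db replicates 1 and 3 it was 1.27 and 1.365 and no longer at an unadjusted p-value under 0.05.

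Sgpp1 (NCBI Gene 81535), a sphingosine 1-phosphate phosphatase, was at 132.5, 121 and 141.5 CPM in Db replicates 1 to 3 and at 67.5, 113 and 105.5 CPM in Db + Ato10 replicates 1 to 3. The groups did not overlap, and replicate 1 was again the treated library farthest from the saline group. Its log2 fold change was -0.47 (SE 0.22, edgeR's adjusted p = 0.323) and -0.26 without Db + Ato10 replicate 1. Without Db + Ato10 replicate 2 it was -0.59 and at an unadjusted p-value under 0.05.

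Sgpp2 (NCBI Gene 433323), the second such phosphatase, was at 77.5, 69.3 and 60.2 CPM in Db replicates 1 to 3 and at 48.5, 30.2 and 42.9 CPM in Db + Ato10 replicates 1 to 3. All treated libraries lay below all saline libraries, and here replicate 2 and not replicate 1 was the lowest. Mean levels (± SD, n = 3) were 69.0 ± 8.65 CPM with saline and 40.5 ± 9.40 CPM with atorvastatin. The log2 fold change was -0.77 (SE 0.21, edgeR's adjusted p = 0.239), with -0.91 without Db + Ato10 replicate 1, -0.58 without replicate 2, -0.80 without replicate 3 and -0.66 without Db replicate 1. Sgpp2 overlaps Farsb, Gm19072 and Gm51634 in the RefSeq annotation.

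In TPM, the sum of Sgpp1 and Sgpp2 was 2.98, 2.01 and 2.46 times the sum of the kinases Sphk1 and Sphk2 in Db replicates 1 to 3, and 0.735, 1.65 and 1.58 times that sum in Db + Ato10 replicates 1 to 3. The ratio of phosphatases to kinases was lower in every treated library than in any saline library, and it was below 1 in Db + Ato10 replicate 1 only. This difference, and that in the share of Sphk1 below, largely follow from the levels of the single genes given above. Sphk1 made up 20.1%, 27.7% and 21.1% of the summed TPM of both kinases in the Db libraries and 59.0%, 38.0% and 35.0% in the Db + Ato10 libraries, again without overlap. The share of Sgpp2 in the summed TPM of both phosphatases was 32.8%, 32.3% and 26.1% in the Db libraries and 37.7%, 18.2% and 25.2% in the Db + Ato10 libraries, and overlapped.

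Ugcg (NCBI Gene 22234) encodes the glucosylceramide synthase, which draws ceramide into glycosphingolipids. Its level was 10.5, 16.0 and 11.0 CPM in Db replicates 1 to 3 and 40.1, 32.3 and 10.1 CPM in Db + Ato10 replicates 1 to 3. Treated replicates 1 and 2 were above all saline libraries, but replicate 3 was the lowest of all 6, so the groups overlapped. The log2 fold change was 1.14 (SE 0.49, edgeR's adjusted p = 0.308). Left out in turn, Db + Ato10 replicate 1 gave 0.78, Db replicate 1 gave 1.05 and Db + Ato10 replicate 3 gave 1.54, where Ugcg passed both criteria.

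**Figure D2:**
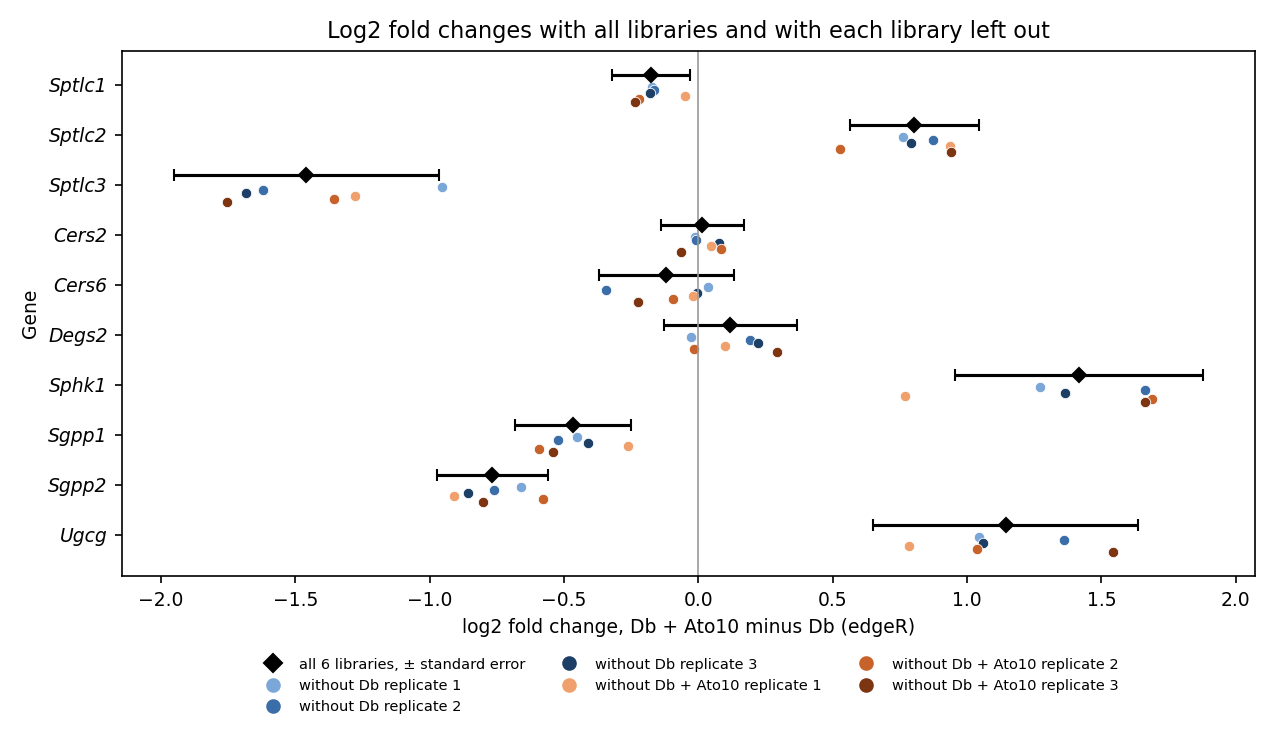
Log2 fold change of the Db + Ato10 group against the Db group for each of the 10 enzymes from edgeR, with all 6 libraries (black, bars show the standard error) and with each library left out in turn (coloured points). The sign holds in each of these fits for Sptlc1, Sptlc2, Sptlc3, Sphk1, Sgpp1, Sgpp2 and Ugcg and turns in at least 1 of them for Cers2, Cers6 and Degs2.

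Ranked by mean TPM, a level per transcript length, the 10 enzymes of the Db group ran from Cers2 (230 ± 17.2, SD, n = 3) through Sgpp1 (69.5 ± 5.31), Sptlc1 (44.4 ± 0.586), Sptlc2 (34.7 ± 3.01), Sgpp2 (30.3 ± 3.84), Degs2 (20.5 ± 4.39), Cers6 (13.3 ± 4.07), Sphk1 (9.56 ± 3.10) and Ugcg (5.85 ± 1.44) to Sptlc3 (1.37 ± 0.673). Over the 3 Db libraries Sptlc2 and Sgpp2, Degs2 and Cers6, Cers6 and Sphk1, and Sphk1 and Ugcg were neighbours whose ranges met, while the other neighbours were separate. In the Db + Ato10 group Cers2 (219 ± 21.3 TPM) was again the most abundant and Sptlc3 (0.473 ± 0.169 TPM) the least. Between them came Sptlc2 (57.8 ± 21.4 TPM), Sgpp1 (47.8 ± 14.2 TPM), Sptlc1 (37.3 ± 7.03 TPM), Sphk1 (24.4 ± 14.4 TPM), Degs2 (20.9 ± 5.92 TPM), Sgpp2 (16.7 ± 3.19 TPM), Ugcg (12.1 ± 6.71 TPM) and Cers6 (11.4 ± 1.85 TPM), and each difference between neighbours among these was smaller than the larger of their SDs. Sptlc2 stood behind Sgpp1 and Sptlc1 in the Db order and before them in the Db + Ato10 order.

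The authors also deposited expected counts per transcript, estimates that divide the reads of a gene among its isoforms and are uncertain where isoforms share most of their sequence. The 10 enzymes had 32 transcripts, of which 21 were tested. edgeR called 0 of the 21, beside 0 of 30175 transcripts (0%), and 2, NM_011479.4 of Sptlc2 and NM_001004173.2 of Sgpp2, were at an unadjusted p-value under 0.05, beside 8.19% of transcripts. DESeq2 called 1, the transcript of Sgpp2, beside 2.96% of transcripts. For Sptlc2 and Sgpp1 a single transcript was listed.

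Of the Sgpp2 transcripts, NM_001004173.2 had 905, 556 and 524 estimated counts in Db replicates 1 to 3 and 319, 348 and 377 in Db + Ato10 replicates 1 to 3. The groups did not overlap, with a log2 fold change of -1.10 (SE 0.26, edgeR's adjusted p = 0.415). XM_006496506.3 had 0, 155 and 179 estimated counts in the Db libraries and 385, 69.8 and 119 in the Db + Ato10 libraries, and XM_011238695.2 had between 16.7 and 67.6 in all 6, both with overlap. An estimate of 0 beside 155 and 179 within the Db group marks a division between isoforms that differed widely among replicates.

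Of the Sphk1 transcripts 4 were tested. NM_025367.6 had 53.6, 59.9 and 69.0 estimated counts in Db replicates 1 to 3 and 215, 116 and 81.8 in Db + Ato10 replicates 1 to 3, without overlap and with a log2 fold change of 0.96 (SE 0.42, edgeR's adjusted p = 0.626). NM_011451.3, NM_001172472.1 and XM_006532669.3 each had 0 in at least 1 Db library and their highest estimate, 201, 84.7 and 78.4, in Db + Ato10 replicate 1, with overlapping groups. The level of Sphk1 was thus spread over several isoforms in every library.

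For the other enzymes a single isoform held most of the TPM. NM_009269.2 held at least 97.4% of Sptlc1 in each library, beside XR_382233.1. XM_006499452.3 held at least 91.6% of Cers6, beside NM_172856.3, NM_027299.5 at least 88.0% of Degs2, beside NM_001171002.1, and NM_011673.3 at least 93.0% of Ugcg, beside XM_006537785.3. Of the Cers2 transcripts NM_029789.2 held at least 83.9% in 5 libraries and 69.6% in Db + Ato10 replicate 1, where XM_006502260.1 held 30.4%, and NM_001320492.1 held at most 3.11%. Apart from NM_009269.2, whose groups did not overlap as for Sptlc1 itself, these transcripts overlapped between the groups.

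Other genes of the pathway were taken from a list of 62, also chosen with earlier results of these data known. Of the list, 61 were in the table and 57 were tested. edgeR called 0 of the 57, and 10 (17.5%) were at an unadjusted p-value under 0.05, a share close to the 16.9% of all genes. Of these, 8 were higher (beside 11.2% of all genes) and 2 were lower (beside 5.71%) in the Db + Ato10 group. DESeq2 called 2, Smpdl3b and B4galnt1, beside 6.48% of all genes, and in 11 (19.3%) the groups did not overlap, beside 23.2% of all genes. The median log2 fold change of the list was 0.103, and its median size was 0.297, beside 0.287 for all genes. Without Db + Ato10 replicate 3 the number at an unadjusted p-value under 0.05 was 20 (29.9% of all genes) and edgeR called 4, Asah1, Smpdl3b, A4galt and B4galnt1, beside 8.18% of genes. Without Db replicate 1 the number at that threshold was 3, Smpdl3b, B4galt5 and B4galnt1 (7.68% of all genes), so that Asah1, Acer3, Sgms2, Plpp2, A4galt, Gal3st1 and Gla no longer met it.

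Of the other genes of backbone synthesis, 0 of 7 reached an unadjusted p-value under 0.05 with edgeR on counts, beside 16.9% of all genes. Kdsr did so with limma on log2(TPM + 1), log2(TPM + 0.1) and log2(FPKM + 1), beside 15.9%, 16.3% and 14.0% of genes. Degs1, the main dihydroceramide desaturase and the most abundant of them in TPM, was at 202 ± 27.1 CPM with saline and 206 ± 51.4 CPM with atorvastatin (SD, n = 3). Among the other ceramide synthases 2 of 4 were tested, with 0 at that threshold. Cers5 was at 37.7 ± 1.91 and 42.4 ± 3.73 CPM.

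Of the ceramidases and ceramide kinase, 2 of 5 tested genes were higher at an unadjusted p-value under 0.05, beside 11.2% of all genes. Asah1, the acid ceramidase of lysosomes, was at 102, 90.9 and 94.4 CPM in Db replicates 1 to 3 and at 186, 181 and 103 CPM in Db + Ato10 replicates 1 to 3 (log2 fold change 0.71, SE 0.24). Acer3, an alkaline ceramidase, was at 14.8, 18.1 and 19.9 CPM and at 32.5, 24.3 and 21.4 CPM in the same order (log2 fold change 0.57, SE 0.21). For both, the groups did not overlap, and replicate 3 was the treated library closest to the saline group. With edgeR, Asah1 was no longer at an unadjusted p-value under 0.05 in 5 of the 6 fits on 5 libraries and was called in the other, without Db + Ato10 replicate 3 (8.18% of genes). Acer3 was no longer at it in 3 of the 6, without Db replicate 1, Db replicate 2 or Db + Ato10 replicate 1.

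Of 8 tested genes of sphingomyelin synthesis and breakdown, 1 was higher (11.2% of all genes) and 1 lower (5.71%) at that threshold. Smpdl3b, a relative of acid sphingomyelinase known from podocytes and macrophages, was at 0.954, 2.34 and 1.37 CPM in Db replicates 1 to 3 and at 19.6, 25.6 and 3.47 CPM in Db + Ato10 replicates 1 to 3 (log2 fold change 3.38, SE 0.78). Sgms2, a sphingomyelin synthase of the plasma membrane, was at 159, 193 and 139 CPM and at 135, 103 and 116 CPM (log2 fold change -0.47, SE 0.18). Neither gene overlapped between the groups. With edgeR, Smpdl3b was at that threshold with each library left out in turn. Sgms2 was no longer at it without Db replicate 1, Db replicate 2, Db + Ato10 replicate 2 or Db + Ato10 replicate 3. Smpdl3a, the most abundant of this role in TPM, was at 412 ± 28.6 and 318 ± 68.7 CPM (SD, n = 3), also without overlap.

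Beside the kinases and phosphatases of the set, 11 genes that make, cleave, carry or sense sphingosine 1-phosphate were tested, and 1 was at an unadjusted p-value under 0.05, beside 16.9% of all genes. This was Plpp2, a lipid phosphatase of membranes, at 39.1, 62.1 and 54.4 CPM in the Db libraries and at 77.0, 109 and 64.7 CPM in the Db + Ato10 libraries, with no overlap between them (log2 fold change 0.69, SE 0.26). With edgeR, Plpp2 was no longer at that p-value without Db replicate 1, Db replicate 3 or Db + Ato10 replicate 2.

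Glycosphingolipid synthesis, which follows Ugcg, had 4 of 8 genes at that threshold, beside 16.9% of all genes, with 3 higher (11.2%) and 1 lower (5.71%). B4galnt1, which makes the ganglioside GM2 and its relatives, was at 25.1, 34.7 and 29.9 CPM in Db replicates 1 to 3 and at 108, 109 and 41.8 CPM in Db + Ato10 replicates 1 to 3 (log2 fold change 1.53, SE 0.38). As with Ugcg, treated replicates 1 and 2 were far above the saline libraries and replicate 3 was nearest to them, but for B4galnt1 the groups did not overlap. B4galt5, the main lactosylceramide synthase, was at 44.9 ± 7.09 and 68.9 ± 18.9 CPM (SD, n = 3), and A4galt, which makes globotriaosylceramide, was at 22.9 ± 4.46 and 37.0 ± 10.2 CPM (SD, n = 3), both with overlapping groups. With edgeR, B4galt5 was no longer at that threshold without Db replicate 2 or 3 or Db + Ato10 replicate 1 or 2. A4galt was no longer at it without Db replicate 1 or 2 or Db + Ato10 replicate 1 or 2. Gal3st1, which adds the sulfate of sulfatides, was the lower gene, at 40.1, 35.9 and 50.4 CPM and at 30.3, 25.6 and 33.4 CPM (log2 fold change -0.50, SE 0.18). It was no longer at that threshold without Db replicate 1, Db replicate 3 or Db + Ato10 replicate 2.

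In lysosomal breakdown of glycosphingolipids 1 of 12 genes was higher at that threshold, beside 11.2% of all genes. Gla, the alpha-galactosidase that degrades globotriaosylceramide, was at 9.85, 9.71 and 7.92 CPM in the Db libraries and at 35.4, 16.3 and 10.6 CPM in the Db + Ato10 libraries (log2 fold change 1.18, SE 0.44). The groups did not overlap, with replicate 3 only just above the saline libraries. With edgeR, Gla was no longer at that threshold without Db replicate 1, Db replicate 2, Db replicate 3 or Db + Ato10 replicate 1. Psap, the precursor of the saposins that assist these hydrolases and the most abundant gene of the list in TPM, was at 1498 ± 125 and 2581 ± 1172 CPM (SD, n = 3), with overlap. Of 4 transfer proteins 0 were at that threshold (16.9% of all genes), with Gltp, the most abundant, at 61.7 ± 15.9 and 78.6 ± 7.21 CPM (SD, n = 3).

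**Figure D3:**
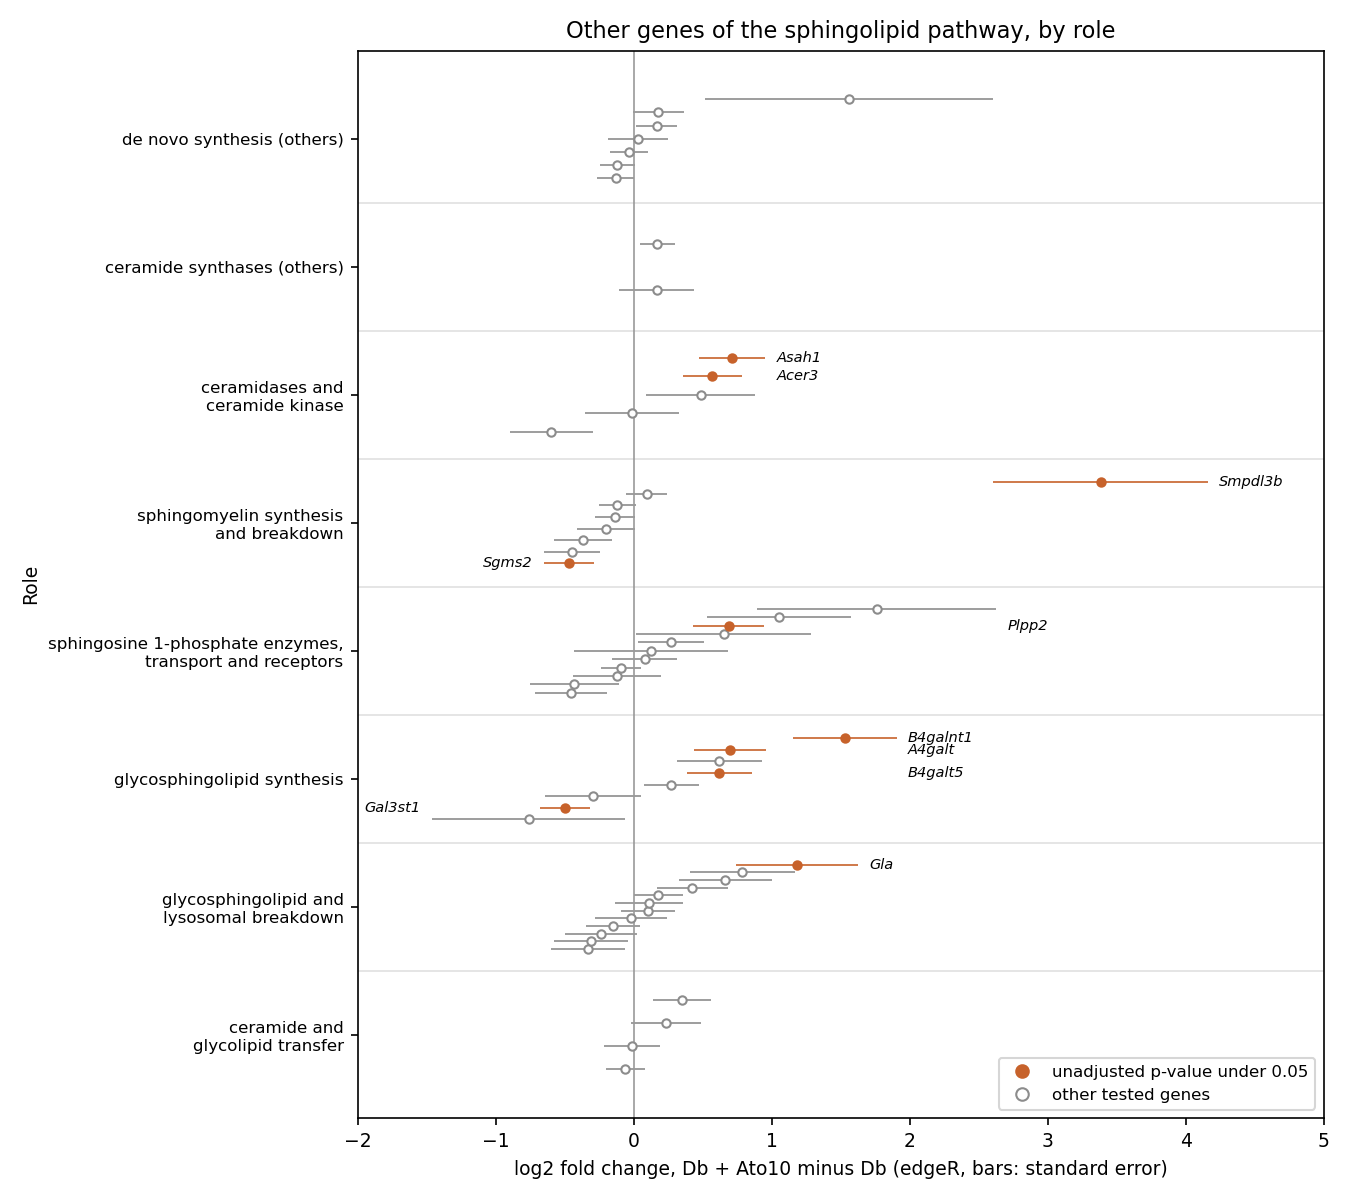
Log2 fold change of the Db + Ato10 group against the Db group (edgeR, bars show the standard error) for 57 other genes of sphingolipid metabolism grouped by role. Filled points mark the 10 genes at an unadjusted p-value under 0.05, of which 8 lie to the right of 0 and 2, Sgms2 and Gal3st1, to the left. Of all tested genes 11.2% were higher and 5.71% lower at that threshold.

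Markers of other cells differed between these libraries in the same replicates. Those of macrophages summed to 125, 221 and 171 CPM in Db replicates 1 to 3 and to 4400, 1159 and 249.9 CPM in Db + Ato10 replicates 1 to 3. All 7 were higher at an unadjusted p-value under 0.05 (11.2% of all genes), Lyz2 was the most abundant, and none was at 0 in any library. The order of the treated libraries, replicate 1 highest and replicate 3 nearest the Db group, is also that of Ugcg, Gla, Acer3, Asah1 and A4galt. For Asah1 and A4galt replicates 1 and 2 were nearly equal. Sphk1 was likewise highest in replicate 1 but about equal in replicates 2 and 3, and Sptlc2 was highest in replicate 2. The other pathway genes higher at that p-value, Smpdl3b, Plpp2, B4galt5 and B4galnt1, were also highest in replicate 2, B4galnt1 only just. For these, too, replicate 3 was nearest the Db group. Lymphocyte markers summed to 1.11, 4.33 and 1.86 CPM and to 22.7, 13.6 and 2.60 CPM, with Cd3g as the most abundant of 6, 1 of 2 tested genes higher at that threshold and Ms4a1 at 0 in Db replicates 1 and 2. Markers of urothelium and stratified epithelium summed to 5.64, 3.38 and 4.12 CPM and to 120, 61.8 and 20.3 CPM, with Krt5 as the most abundant of 7 over all libraries, 3 of 4 tested genes higher and Krt14 at 0 in Db replicates 2 and 3. Among the tested genes, Krt5 and Krt14 had at most 5 counts in any Db library. They had enough counts to be tested only through the Db + Ato10 group, so they could only come out as higher. Trp63, with 10, 12 and 7 counts in Db replicates 1 to 3, also needed the Db + Ato10 libraries to be tested. In the Db group the most abundant marker of this list was Upk1a, at 2.70, 1.99 and 1.78 CPM, which was at 2.17, 0.878 and 1.02 CPM in the Db + Ato10 group. In that group Krt5 (74.2, 39.8 and 11.7 CPM) and Krt14 (31.2, 13.6 and 5.59 CPM) made up most of the sum. The part of these cells in the differences of Sptlc2, Sphk1, Sgpp1, Sgpp2 and Ugcg was not tested.

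Among nephron markers, of the thick ascending limb 3 of 5 and of the collecting duct 4 of 6 were lower at an unadjusted p-value under 0.05, and of the proximal tubule 0 of 6, beside 5.71% of all genes. Collecting duct markers summed to 727, 523 and 927 CPM in Db replicates 1 to 3 and to 558, 314 and 583 CPM in Db + Ato10 replicates 1 to 3, with Aqp2 as the most abundant. Podocyte markers summed to 570, 371 and 367 CPM and to 573, 197 and 373 CPM, with Podxl as the most abundant and 0 of 5 at that threshold. Endothelial markers summed to 297, 245 and 281 CPM and to 330, 126 and 259.5 CPM, with Emcn as the most abundant in TPM and 1 of 5 lower. For these lists no marker was at 0. Sgpp2 was lowest in Db + Ato10 replicate 2, as were the summed markers of the thick ascending limb, collecting duct, podocytes and endothelium, and Sgpp1 was lowest in replicate 1, as were those of the proximal tubule. Their part in the results was not tested, and in whole kidney RNA fewer cells of a type cannot be told apart from less RNA per cell.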

How the data were processed

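The sample labels gave the groups and replicate numbers, with 1 library per mouse. The authors deposited expected counts (estimated reads per gene and per transcript, not normalized, with 91.3% of gene values exactly whole), TPM and, for genes, FPKM. The submitters' processing notes list HISAT, Bowtie2 2.2.5 and build mm9. The counting tool is not given in the sources used here. Expected counts were rounded, genes or transcripts reaching 10 counts in 3 libraries or more were kept, and groups were compared with edgeR 4.0.16 in R 4.3.3 (TMM, quasi-likelihood F test, Benjamini-Hochberg adjustment over all genes). A call needed a fold change over 1.5 and an adjusted p-value under 0.05, the study's criteria, for which its text names no test. Standard errors were taken as the size of a log2 fold change over the square root of its F. Alternatives were DESeq2 1.42.0, limma 3.58.1 (voom, or log2 of TPM or FPKM plus a pseudocount), upper-quartile normalization, other filters and thresholds, the replicate number as a block, and each library left out. Figures used matplotlib 3.10.9 in Python 3.11.15. RefSeq GRCm38.p6 gave overlapping genes by name and promoter sequences. The enzymes, pathway and marker lists were chosen with earlier results of these data known. Named were all 10 enzymes, pathway genes at an unadjusted p-value under 0.05, the most abundant gene of each role, and tested transcripts of enzymes with at least 2. Floors cover counting error only.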

Additional observations from a re-analysis of the deposited data

How the results depend on the processing

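Over the alternatives run, Sptlc1, Sptlc2, Sptlc3, Sphk1, Sgpp1, Sgpp2 and Ugcg kept the sign of their log2 fold change, and Sptlc3 was not tested with at least 10 counts in every library. Values for Sptlc3 ranged from -1.766 to -0.456, the latter on log2(FPKM + 1), with -0.654 on log2(TPM + 1). The value for Cers2 was -0.008 with no filter and -0.069 with TPM plus 1 or plus 0.1, and it ranged from -0.064 to 0.090 with a library left out. With a library left out, Cers6 ranged from -0.346 to 0.037 and Degs2 from -0.031 to 0.299. edgeR called 0 genes and 0 of the 10 enzymes, with 2314 genes and 4 enzymes at an unadjusted p-value under 0.05. DESeq2 called 884 genes, 2 enzymes and 1 transcript of an enzyme, and limma on log2(TPM + 0.1) called 1 gene, not an enzyme. With a library left out, under edgeR or DESeq2, genes called ranged from 0 to 2614, enzymes called from 0 to 4, enzymes at an unadjusted p-value under 0.05 from 2 to 5 and pathway genes at it from 3 to 21, beside 7.68% to 30.9% of all genes. With limma on log2(TPM + 1), log2(FPKM + 1) and log2(TPM + 0.1) 7 pathway genes were at it in each, Kdsr among them, beside 15.9%, 14.0% and 16.3% of all genes. These were not all genes of the main fit. Asah1, Acer3, Plpp2, B4galt5, A4galt and Gla were not at it with either TPM scale, nor Acer3, Sgms2, A4galt and Gla with FPKM. Sptlc2 and Sgpp2 were at an unadjusted p-value under 0.05 in every one of these fits. The most genes and enzymes called came without Db + Ato10 replicate 3, where edgeR called 0 transcripts of enzymes. With upper-quartile normalization Sptlc1 overlapped, which left 5 enzymes without overlap, beside 23.0% of all genes. The number was 7 without Db replicate 2, with Cers6 added (39.0% of all genes), and 7 without Db + Ato10 replicate 3, with Ugcg added (50.6%). The cause of these shifts was not tested.

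With the replicate block, 2 enzymes (Sptlc2 and Sgpp2) and 6 pathway genes were at an unadjusted p-value under 0.05, and 0 genes were called with edgeR (1856 at an unadjusted p-value under 0.05). Correlations of same-numbered libraries, after subtracting each group's mean, were -0.151, 0.061 and 0.208, and not every library correlated best with its own number. These values gave no sign that the numbers pair the mice, but with 3 libraries per group they cannot exclude it. Depth limits Sptlc3 most, at 7 to 34 counts per library.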
